A study of Mus musculus with 8 samples.

Results

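Immediate early genes are genes that cells switch on within minutes of a stimulus, from transcription factors that are already present, without making new protein first. The immediate early genes described here were 10 genes chosen by their symbols, 10 of the 22609 gene symbols with counts: Fos, Fosb, Junb, Egr1, Egr3, Arc, Npas4, Nr4a1, Ier2 and Dusp1. RNA was sequenced from dorsal root ganglion (DRG) neurons supplying the skin of the hindpaw and the muscle of the thigh in naive C57BL/6J mice aged 8 to 12 weeks, with 4 female and 4 male libraries, the females being in the estrous phase. In all animals of both sexes the fluorescent lectin WGA-488 was injected into the hindpaws and thighs, and 2 days later the lumbar ganglia were dissociated with liberase and dispase II for 60 minutes and the WGA-488+ neurons were sorted in 2 rounds. The measured levels are therefore those of preparations that had gone through dissociation and sorting, in which markers of glia were also counted. Neurons that had not gone through these steps were not analysed here.

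In neurons, calcium entry and growth factor signals reach these genes through MAP kinases and calcium-dependent kinases, which act on CREB and on serum response factor bound at the promoters. Fos, Fosb and Junb encode subunits of the transcription factor AP-1, Egr1 and Egr3 are zinc finger transcription factors, Nr4a1 is an orphan nuclear receptor and Npas4 is a transcription factor induced by neuronal calcium entry. Arc acts at synapses on the uptake of glutamate receptors, Ier2 is a nuclear protein, and Dusp1 is a phosphatase that switches MAP kinases off again. In sensory neurons Fos, Jun and Atf3 are widely used as signs of stimulation or of axon injury, and tissue dissociation is a known stimulus for this class of genes.

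The promoters are shown because the levels of several of these genes moved together over the libraries, as described further on. Promoter sequences of RefSeq (build GRCm38.p6) were given for 6 of the 10 genes, and those of Fos, Junb and Dusp1, whose levels were among the most alike, and of Nr4a1, which departed from them in a male library, are printed 5′ to 3′ over the 250 bases before the annotated start. Capitals mark the core letters of the cAMP response element, TGACG, read on either strand, so that it also appears as CGTCA.
Fos (chr12:85473640-85473889, plus strand): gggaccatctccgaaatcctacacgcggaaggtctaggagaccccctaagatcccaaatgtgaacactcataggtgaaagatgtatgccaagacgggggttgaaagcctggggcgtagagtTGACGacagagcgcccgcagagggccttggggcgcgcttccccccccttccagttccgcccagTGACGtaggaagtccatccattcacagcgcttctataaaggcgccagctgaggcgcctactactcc
Junb (chr8:84978749-84978998, minus strand): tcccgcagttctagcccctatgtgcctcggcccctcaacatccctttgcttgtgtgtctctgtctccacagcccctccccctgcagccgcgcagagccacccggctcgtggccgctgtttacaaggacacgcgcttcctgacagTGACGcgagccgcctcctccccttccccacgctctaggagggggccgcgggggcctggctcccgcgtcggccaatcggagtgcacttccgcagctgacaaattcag
Dusp1 (chr17:26508473-26508722, minus strand): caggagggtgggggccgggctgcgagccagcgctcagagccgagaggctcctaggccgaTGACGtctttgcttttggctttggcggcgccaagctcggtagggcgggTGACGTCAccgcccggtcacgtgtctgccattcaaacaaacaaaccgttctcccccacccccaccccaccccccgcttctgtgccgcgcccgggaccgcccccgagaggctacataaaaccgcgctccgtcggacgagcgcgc
Nr4a1 (chr15:101266596-101266845, plus strand): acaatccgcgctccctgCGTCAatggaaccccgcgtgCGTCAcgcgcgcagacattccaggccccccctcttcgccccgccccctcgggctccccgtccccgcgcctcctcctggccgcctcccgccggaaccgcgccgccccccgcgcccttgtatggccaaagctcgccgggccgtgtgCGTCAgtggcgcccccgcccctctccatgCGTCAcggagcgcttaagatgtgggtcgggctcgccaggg
These letters were found in 6 of the 6 promoters, which also include Fosb and Npas4, and in 17.8% of all 32851 promoter windows of the same length. Fos held it at -129 to -125 and at -66 to -62 from the start, and Junb at -106 to -102. Dusp1 held it at -191 to -187 and in a pair of overlapping matches on opposite strands at -143 to -139 and -140 to -136. Nr4a1 held 4 matches, at -233 to -229, -213 to -209, -69 to -65 and -40 to -36. The CArG box, the sequence bound by serum response factor, had 0 matches in these 6 windows and was present in 1.47% of all windows. The AP-1 site, read as TGACTCA or TGAGTCA on either strand, also had 0 matches in the 6 windows and was present in 4.46% of all. A match or its absence describes the letters of these windows alone.

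The libraries held 4800071 to 7329597 gene reads, and 57.8% to 60.5% of counted reads lay outside annotated features. A level is given in counts per 1000000 gene reads (CPM), and 3 reads correspond to 0.409 to 0.625 CPM. Reads carry no molecular identifiers, so this floor covers counting error only. All 15 neuron markers passed the expression filter, with the neuronal tubulin Tubb3 at 4320 to 6359 CPM. So did the 14 markers of satellite glia and Schwann cells with counts, summing to 11660 to 14988 CPM in females and 5453 to 11257 CPM in males. Female replicate 4 stood apart from the rest of the libraries. Over 12393 tested genes its deviation from the mean library correlated with exon length with a Spearman's rho of -0.531, against 0.0938 to 0.306 in the other 7 libraries. The tested immediate early genes are shorter than most, at 2586 exonic bases for the median gene where all tested genes had 3836, so several results are also given without it, where this is stated, and all others include it. In bulk RNA, more cells expressing a gene and more RNA per cell cannot be told apart.

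The AP-1 subunit Fos (chromosome 12, 86814840 to 86818223, plus strand, build mm9, protein-coding) was the most abundant of the 10 by mean CPM, though not in each library. It was at 88.8, 54.5, 268.7 and 299.0 CPM in female replicates 1 to 4 and at 116.2, 221.5, 123.2 and 108.0 CPM in male replicates 1 to 4. The 2 highest and the 2 lowest libraries were all female, and the male values lay between them. The highest level was 5.49 times the lowest, with 314 to 1775 reads behind the values.

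Fosb (chromosome 7, 19888070 to 19895394, minus strand), a second Fos-type subunit, was far less abundant. It was at 6.74, 3.30, 26.9 and 7.75 CPM in the females and 6.28, 14.1, 5.78 and 6.51 CPM in the males. Female replicate 3 was the highest library and female replicate 2 the lowest, an 8.15-fold range from 129 and 19 reads. Female replicate 4, which had the most Fos, was close to the males in Fosb.

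Junb (chromosome 8, 87500811 to 87502617, minus strand, 1 exon), the Jun-type partner, was at 74.4, 50.2, 110.6 and 135.8 CPM in the females and 92.8, 108.3, 75.3 and 85.5 CPM in the males. Its order over the female libraries was that of Fos, over a narrower 2.71-fold range.

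The zinc finger gene Egr1 (chromosome 18, 35020861 to 35024638, plus strand) was at 59.1, 37.7, 149.6 and 133.8 CPM in the females and 71.9, 117.6, 88.0 and 56.4 CPM in the males. Female replicates 3 and 4 and male replicate 2 were again the 3 highest libraries. Egr1 shares 8 bases with a gene on the opposite strand that is not among those counted. Its relative Egr3 (chromosome 14, 70477252 to 70479964, plus strand) had only 12, 3, 3 and 2 reads in the females and 4, 3, 8 and 6 reads in the males, at or near the floor in most libraries.

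Nr4a1 (chromosome 15, 101097277 to 101105223, plus strand) was at 77.8, 65.8, 121.0 and 135.3 CPM in the females and 29.5, 97.7, 74.6 and 57.1 CPM in the males. Male replicate 1 was the lowest library here, whereas for Fos, Fosb, Junb and Egr1 it was female replicate 2.

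Arc (chromosome 15, 74499513 to 74503000, minus strand) was at 7.84, 9.72, 19.4 and 26.3 CPM in the females and 8.73, 13.2, 16.3 and 7.40 CPM in the males. The other gene closely tied to neuronal calcium entry, Npas4 (chromosome 19, 4984355 to 4989971, minus strand), had 2, 3, 3 and 2 reads in the females and 0, 3, 4 and 1 reads in the males. Npas4 was thus not detectable above the floor of 3 reads in 7 of the 8 libraries, and 0 reads in male replicate 1 allow a level of up to 0.409 CPM.

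Ier2 (chromosome 8, 87185230 to 87186751, minus strand, 1 exon) was at 23.9, 19.1, 25.2 and 48.2 CPM in the females and 19.8, 24.8, 28.1 and 25.0 CPM in the males. It was raised over the other libraries in female replicate 4 alone. Dusp1 (chromosome 17, 26642535 to 26645464, minus strand), the MAP kinase phosphatase, was at 54.6, 41.0, 86.9 and 117.6 CPM in the females and 72.0, 76.9, 52.2 and 53.8 CPM in the males. The levels of the sexes overlapped for 10 of the 10 genes.

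**Figure D1:**
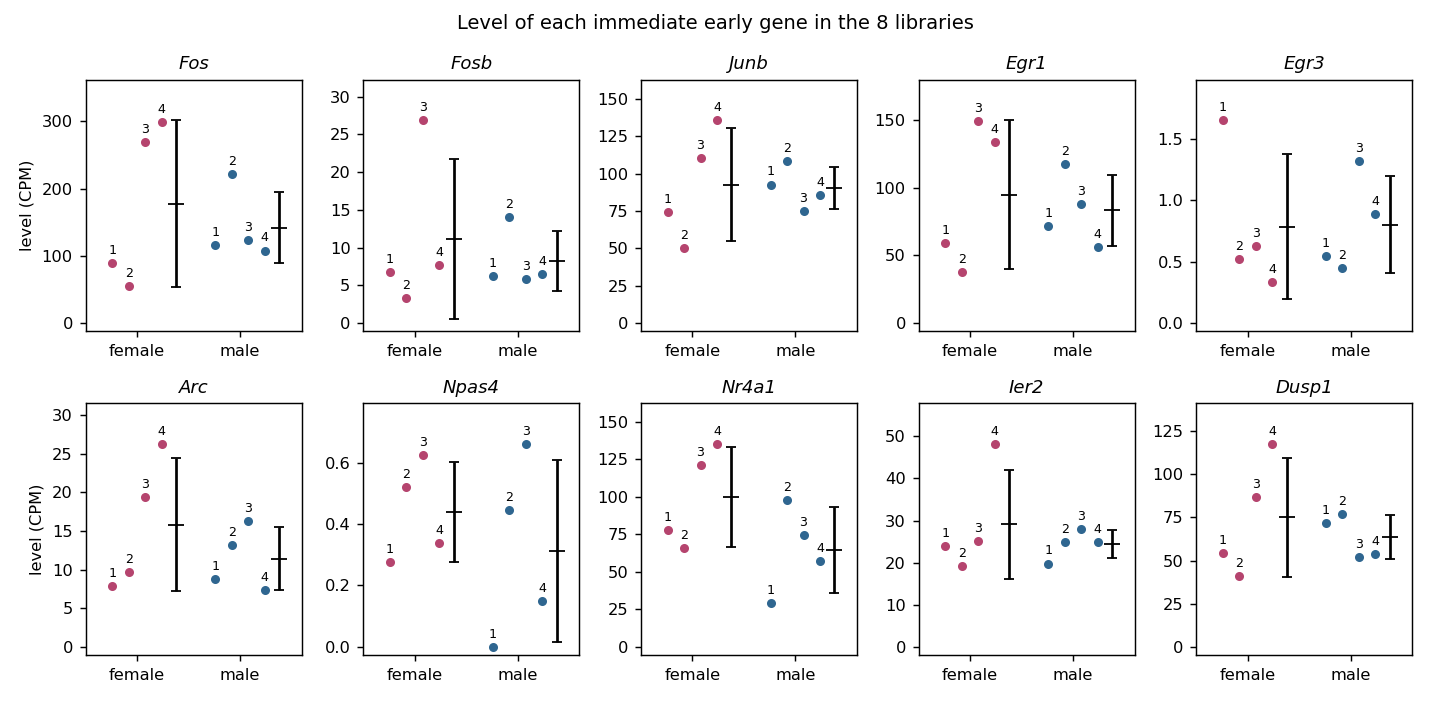
Level of each of the 10 immediate early genes in CPM (vertical axis from 0, a separate scale for each gene) in the female and male libraries. Points are single libraries labelled with their replicate number, and the dash with bars is the mean ± SD (n = 4). For Fos, the female values spread from 54.5 to 299.0 CPM and enclose the 4 male values.

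To compare the genes with each other, levels were divided by the exon length, giving CPM per kb of exon. On this scale Fos was at 68.0 ± 38.4 CPM per kb (SD, n = 8), above 91.9% of tested genes, and Junb at 50.7 ± 14.7. Fos was higher than Junb in 4 of 8 libraries, and their difference did not pass (two-sided exact permutation test of the paired log2 differences, p = 0.164, adjusted p = 0.219 over 8 neighbouring pairs). Nr4a1 at 33.3 ± 13.9, Egr1 at 28.8 ± 13.0 and Dusp1 at 25.7 ± 9.14 CPM per kb followed. The neighbours Nr4a1 and Egr1 (exact p = 0.320) and Egr1 and Dusp1 (exact p = 0.469) did not differ beyond their spread, while Junb was above Nr4a1 in 8 of 8 libraries (adjusted exact p = 0.0156). Ier2 was at 17.6 ± 6.01, Arc at 4.45 ± 2.18, Fosb at 2.58 ± 2.03, Egr3 at 0.539 ± 0.317 and Npas4 at 0.115 ± 0.0705 CPM per kb. Each of the 4 steps from Dusp1 down to Egr3 passed, with an adjusted exact p of 0.0156 or, for Arc over Fosb, 0.0250. Egr3 and Npas4, both at or near the floor, were not compared. The smallest exact p this design can give is 0.00781. The median tested gene was at 6.63 CPM per kb, so 6 of the 10 genes lay above it and 4 below.

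The comparison the study was designed for was between the sexes. None of the 8 immediate early genes that passed the expression filter passed the test between females and males, and their fitted differences, of 0.01 to 0.61 on the log2 scale, were smaller than the spread between libraries of the same sex. The test was the quasi-likelihood test of edgeR over 12518 genes. At an unadjusted p under 0.05 it called 0 of the 8 genes, against 7.11% of all tested genes, and DESeq2 and limma-voom also called 0. At an adjusted p under 0.05 it called 0 of the 8 and 0.0879% of all genes. Egr3 and Npas4 did not reach the filter. Levels of the sexes that did not overlap were found for 0 of the 8 genes and for 5.52% of tested genes.

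Nr4a1 had the largest estimate, with 99.97 ± 33.4 CPM in females and 64.7 ± 28.8 CPM in males (SD, n = 4 each). The log2 fold change, female over male, was estimated at 0.61 ± 0.33 (SE). Its 95% interval was -0.13 to 1.35 and the edgeR adjusted p 0.737. Without male replicate 2 the estimate was 0.88 and its unadjusted p was 0.0271, with an adjusted p of 0.845. Without male replicate 1, its lowest library, the estimate was 0.37 with an unadjusted p of 0.203 in the same edgeR test. Fos was at 178 ± 124 CPM in females and 142 ± 53.2 CPM in males (SD, n = 4 each), which gave 0.30 ± 0.48 (SE) on the log2 scale. Its 95% interval of -0.75 to 1.35 allows a level in females from 0.595 to 2.55 times that in males. Junb was estimated at 0.01 ± 0.26 (SE) on that scale, with an interval of -0.57 to 0.59. The interval of Dusp1 reached from -0.43 to 0.85, that of Egr1 from -0.71 to 1.04, that of Ier2 from -0.34 to 0.81, that of Arc from -0.42 to 1.30 and that of Fosb from -0.84 to 1.65. The estimates lay above 0 for 8 of the 8 genes, with a median of 0.27 against 0.003 over all tested genes. The 8 genes are not independent of each other. Without female replicate 4, 3 of the 8 estimates were above 0 and their median was -0.05, with Fos, Junb, Egr1, Ier2 and Dusp1 at -0.06, -0.23, -0.04, -0.12 and -0.09. Without female replicate 3, 5 were above 0 and Fosb was at -0.49. With all libraries in limma-voom, 6 were above 0, with a median of 0.07, and Fos and Fosb were at 0.01 and 0.03. Arc and Nr4a1 were above 0 in each of the 16 alternative fits.

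**Figure D2:**
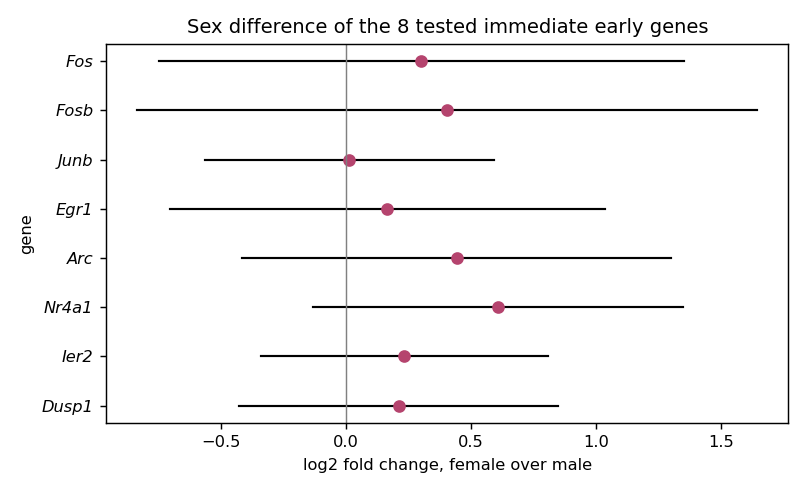
Log2 fold change, female over male, of the 8 tested immediate early genes (points) with the 95% interval of the edgeR fit (lines), from 4 female and 4 male libraries. The interval of each of the 8 genes includes 0, and that of Nr4a1 reaches from -0.13 to 1.35.

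The immediate early genes differed more between libraries of the same sex than most genes did. The spread was taken as the SD of log2(CPM + 1) within a sex, pooled over the sexes. It was 0.908 for Fos and 0.889 for Fosb, above 99.8% and 99.7% of tested genes. Egr1 at 0.737, Arc at 0.640 and Nr4a1 at 0.617 were also above the 90th percentile of tested genes, which was 0.527. Dusp1 at 0.511, Junb at 0.467 and Ier2 at 0.409 were below it but above the median of 0.256. Thus 5 of the 8 genes exceeded a value that 10% of tested genes exceed by definition. The same value was exceeded by 3 of 4 tested macrophage, 4 of 14 glial, 2 of 8 fibroblast and 1 of 15 neuron markers. Among 2163 genes with a mean level similar to that of Fos, its spread was above 99.8%, close to its position among all genes. The female libraries covered a wider fold range than the male ones for 7 of the 8 genes. The share of all tested genes with a wider range in females was not determined. For Fos the range within females was 5.49-fold and within males 2.05-fold. For Nr4a1 it was wider in males, at 3.32-fold against 2.06-fold. Without female replicate 4, 5 of the 8 genes were again above the 90th percentile, then 0.417, while the spread of Ier2 was 0.201. Its range in females was then 1.32-fold against 1.42-fold in males, so that 6 of the 8 genes had the wider range in females.

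**Figure D3:**
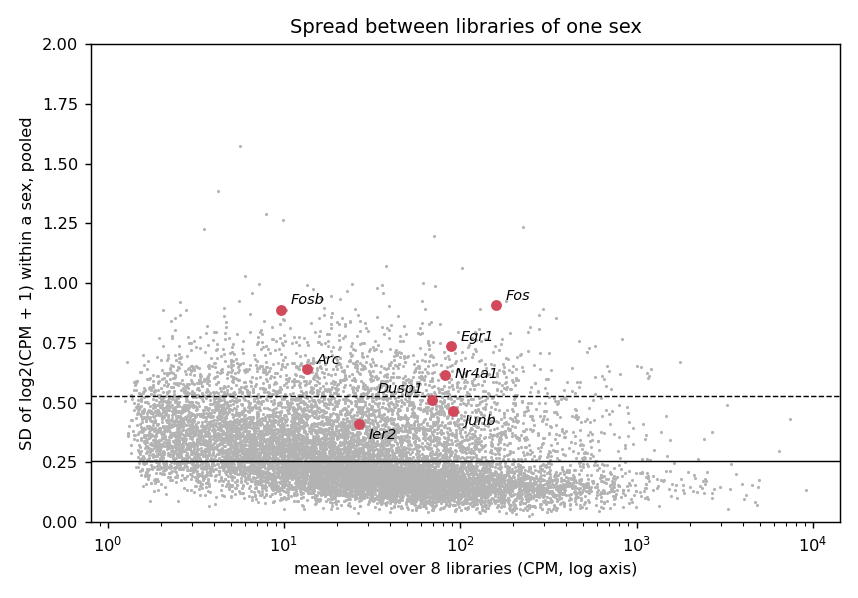
Spread between libraries of the same sex (SD of log2(CPM + 1), pooled over the sexes) against the mean level in CPM on a log axis, for 12518 tested genes (grey) and the 8 tested immediate early genes (red). The solid line is the median spread of 0.256 and the dashed line the 90th percentile of 0.527, which 5 of the 8 genes exceed.

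The libraries that were high in one of these genes were mostly high in the others. Each gene was standardised over the 8 libraries, as its log2(CPM + 1) minus the mean over the SD, and averaged over the 8 tested genes. The average was 1.28 in female replicate 4, 1.00 in female replicate 3 and 0.53 in male replicate 2, and in each of these libraries 7 of 8 genes were above their own mean. It was lowest in female replicate 2, at -1.21, where 0 of 8 genes were above their mean. Female replicate 1 was at -0.53, and male replicates 1, 3 and 4 were at -0.48, -0.08 and -0.50. The exceptions in the 3 high libraries were Fosb in female replicate 4 and Ier2 in female replicate 3 and male replicate 2. Standardised without female replicate 4, the average was 1.31 in female replicate 3 and 0.79 in male replicate 2, each with 8 of 8 genes above their mean, and -1.19 in female replicate 2. Together the 10 genes took 0.0282% of gene reads in female replicate 2 and 0.0904% in female replicate 4.

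**Figure D4:**
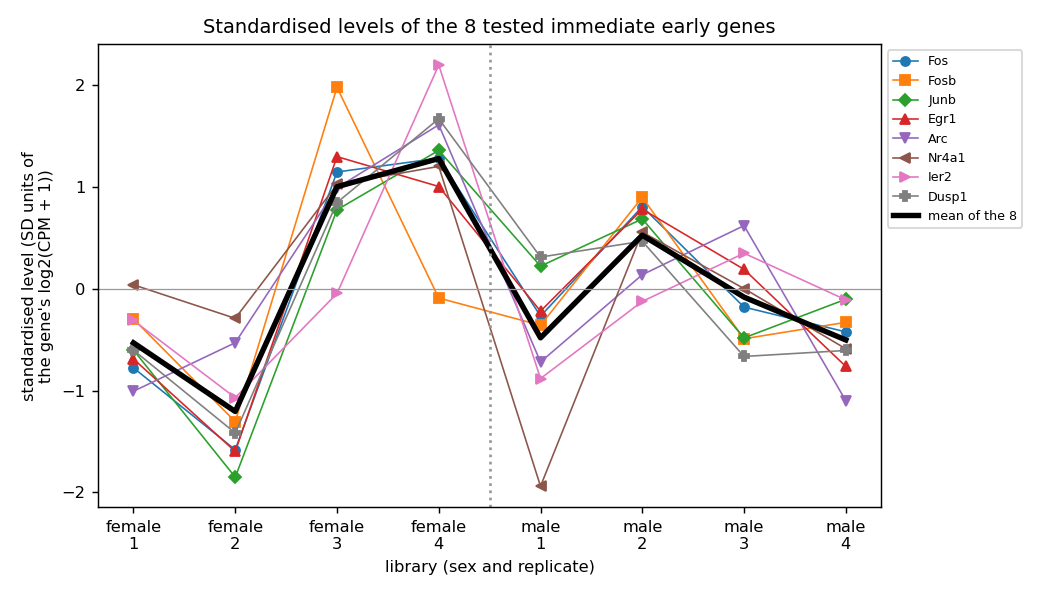
Standardised level of the 8 tested immediate early genes (coloured lines, in SD units of each gene's log2(CPM + 1)) and their mean (black) in the 8 libraries. Lines join the values of a gene, and the replicate numbers carry no order. Female replicates 3 and 4 and male replicate 2 are high for most genes, female replicate 2 is low, and Nr4a1 departs downward in male replicate 1.

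Over the 8 libraries, Pearson's r of log2(CPM + 1) was above 0 for 28 of the 28 pairs of genes, from 0.181 to 0.974, with a median of 0.690. The median Spearman's rho was 0.75, and the median r of deviations from the mean of each sex was 0.714. These correlations share the libraries and their composition, and their exact permutation test asks only whether the libraries of 2 genes are ordered independently of each other. Fos and Egr1 had r = 0.974 and rho = 0.952 (exact permutation p = 0.000149 and 0.00114, adjusted over the 28 pairs 0.00417 and 0.0208). Without the 2 libraries farthest from the median of Fos, r was 0.961. Fos and Junb had r = 0.950 and rho = 0.929 (exact permutation p = 0.000397 and 0.00223, adjusted 0.00486 and 0.0208), and 0.927 without the 2 farthest libraries. Junb and Dusp1, whose promoters are printed above, had r = 0.955 and rho = 0.929 (exact permutation p = 0.000694 and 0.00223, adjusted 0.00486 and 0.0208), and 0.943 without the 2 libraries farthest from the median of Junb.

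Fos, Junb, Egr1 and Dusp1 thus formed the most alike group, with r from 0.870 to 0.974 among them. In all, 7 pairs passed at an adjusted exact p under 0.05 by r and 3 by rho. The 6 pairs within this group were among the 7, but the group was picked by these same r values. Pairs of other tested genes were not compared in this way. Fosb followed Egr1 (r = 0.815, adjusted exact permutation p = 0.0350; rho = 0.762, adjusted 0.0735) and had its lowest r over the 8 libraries with Ier2 (r = 0.181, rho = 0.429, exact permutation p = 0.608 and 0.299). That r was 0.619 without the 2 libraries farthest from the median of Fosb. Nr4a1 followed Junb and Dusp1 less closely, with r of 0.422 and 0.468 (exact permutation p = 0.298 and 0.249). Without the 2 libraries farthest from the median of Nr4a1, its r with Dusp1 was 0.872, and without those farthest from the median of Junb, its r with Junb was 0.286. With the 2 libraries farthest from the median of the first gene of each pair left out, which differ from pair to pair, 26 of 28 pairs were above 0, and the exceptions were Ier2 with Junb (-0.165) and with Dusp1 (-0.296). Leaving out each library in turn gave medians from 0.631, without female replicate 4, to 0.792, without male replicate 1. Without both female replicates 3 and 4, the median over the remaining 6 libraries was 0.518, with 26 of 28 pairs above 0.

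**Figure D5:**
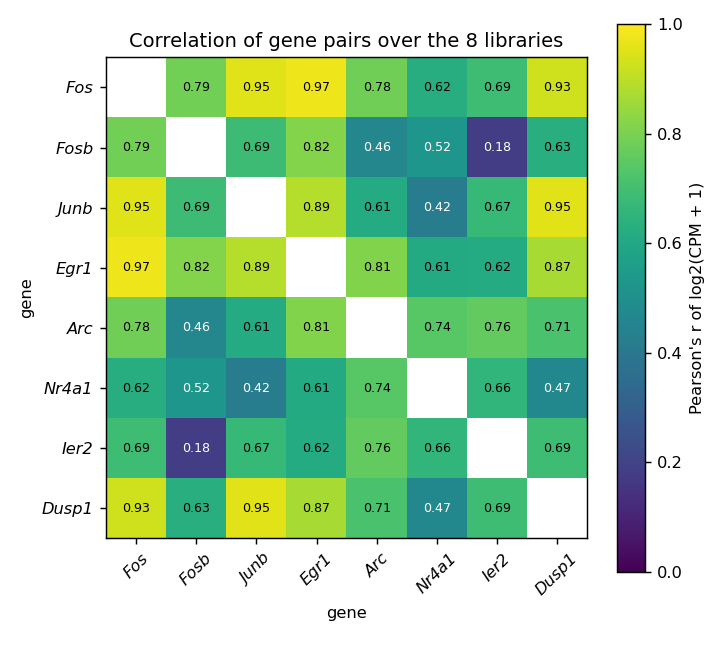
Pearson's r of log2(CPM + 1) over the 8 libraries for each pair of the 8 tested immediate early genes (colour scale from 0 to 1). Values range from 0.18 for Fosb with Ier2 to 0.97 for Fos with Egr1, and the pairs among Fos, Junb, Egr1 and Dusp1 are all at 0.87 or above.

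Markers of cell types were set beside these levels. The glial sum was 11660, 11672 and 11803 CPM in female replicates 1, 2 and 3, where Fos was at 88.8, 54.5 and 268.7 CPM. The lipid carrier gene Apoe made up 8326, 8054 and 8507 CPM of these sums. The other 13 glial markers summed to 3333, 3617 and 3296 CPM, and single ones differed, such as the glial transcription factor Sox10 at 31.2, 79.3 and 104.8 CPM. Female replicate 4 had the highest glial sum, at 14988 CPM, and male replicate 1 the lowest, at 5453 CPM. Over the 8 libraries, log2(CPM + 1) of the glial sum had an r of 0.413 with the averaged level of the 8 genes. Of the 14 glial markers, 10 had an r above 0, against 47.1% of other tested genes. Their median r was 0.240, and 0.018 without female replicate 4.

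At an unadjusted p under 0.05, 4 of 14 glial, 5 of 8 fibroblast and 3 of 4 tested macrophage markers were higher in females and 0 were higher in males, against 4.44% and 2.67% of all tested genes. After edgeR adjustment 0 of them passed, the lowest adjusted p being 0.413 for the glial, 0.338 for the fibroblast and 0.561 for the macrophage markers. Macrophage markers summed to 29.2 CPM in female replicate 2 and 32.1 CPM in female replicate 3, where Fos was at 54.5 and 268.7 CPM. They summed to 10.7 CPM in female replicate 1, within the male range of 5.59 to 12.7 CPM, and to 28.6 CPM in female replicate 4. In these 2 libraries Fos was at 88.8 and 299.0 CPM. Of the 12 macrophage markers, Cx3cr1, Csf1r, C1qa, C1qc and Ptprc were at 0 reads in at least 1 library. Fibroblast markers summed to 165 to 238 CPM in females and 72.6 to 156 CPM in males, and were at 179 and 165 CPM in female replicates 2 and 3. Endothelial markers summed to 20.6 CPM in female replicate 4 and to 3.75 to 7.99 CPM in the other libraries. The r with the averaged level of the 8 genes was 0.405 for the macrophage, 0.431 for the fibroblast and 0.268 for the endothelial sum.

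The neuron marker sum was 34335 CPM in female replicate 4, 29579 in female replicate 3, 27807 in male replicate 3 and 27156 in male replicate 2, and 24598 to 25877 CPM in the other 4 libraries. Over the 8 libraries, log2(CPM + 1) of the neuron marker sum had an r of 0.879 with the averaged level of the 8 genes. Single neuron markers went both ways. The correlation with the averaged level of the 8 genes was above 0 for 10 of the 15, against 47.1% of other tested genes, with a median r of 0.321. Without female replicate 4 it was above 0 for 7 of the 15, with a median of -0.096. Over the 8 libraries the correlation was 0.871 for the neurofilament gene Nefl, the most abundant in CPM. It was -0.846 and -0.844 for the sodium channel genes Scn10a and Scn9a. The part of cell composition and of the composition of female replicate 4 in the levels of the immediate early genes was not tested.

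The related genes were grouped by role. Among 8 other AP-1 subunits, 4 passed the filter. Jun, the partner of Fos, was at 109 to 280 CPM and followed the same libraries, with female replicate 3 the highest and female replicate 2 the lowest. Atf3, the stress- and injury-induced subunit, was at 61.9 and 70.4 CPM in female replicates 3 and 4 and at 55.4 CPM in male replicate 2, against 14.3 to 34.8 CPM in the other 5 libraries. Its spread of 0.994 was above 99.9% of tested genes. Jund, the constitutive Jun-type subunit, ranged over only 7.60 to 12.8 CPM. Fosl2 was lower in females at an unadjusted p of 0.0179, with an edgeR adjusted p of 0.637, at 4.04 ± 0.712 against 6.21 ± 1.17 CPM (SD, n = 4 each), and this p was above 0.05 without female replicate 1 or without male replicate 2.

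Among the other Egr and Nr4a genes and the Egr corepressors, 4 of 6 passed the filter. Egr2 was at 12.3, 8.09 and 9.21 CPM in female replicates 3 and 4 and male replicate 2, and at 1.39 to 4.78 CPM in the other libraries. Nab2, a corepressor that binds Egr proteins and is itself an Egr target, was at 4.66 ± 1.99 CPM in females and 2.28 ± 0.439 CPM in males (SD, n = 4 each). Its levels in the sexes did not overlap and the log2 difference was 1.01 ± 0.32 (SE). The unadjusted p was 0.0101 and the edgeR adjusted p 0.637. Its relative Nab1 had a log2 fold change of 0.01 ± 0.22 (SE). The inducible genes Egr4 and Nr4a3 had 0 to 8 and 0 to 5 reads and were not tested.

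Of 29 other immediate early genes, 23 passed the filter, of which 1 was higher in females and 0 were higher in males at an unadjusted p under 0.05, shares of all tested genes being 4.44% and 2.67%. The gene called, the growth regulator Btg1, was higher by 0.55 ± 0.23 (SE) on the log2 scale. The edgeR adjusted p was 0.696, and its unadjusted p of 0.0372 rose above 0.05 in 5 of the 8 fits that left out 1 library, those without female replicate 2 or 4 or male replicate 1, 2 or 4. The correlation with the averaged standardised level of the 8 genes was above 0 for 20 of the 23, against 47.1% of the 12510 other tested genes. It was over 0.8 for 7, against 3.10%. Without female replicate 4 it was also over 0.8 for 7, against 2.73%. The spread exceeded the 90th percentile for 7 of the 23. The 3 most abundant per exon length were Gadd45g at 45.9, Ier3 at 36.2 and Socs3 at 20.4 CPM per kb. Socs3, an inhibitor of cytokine signalling, was at 100 CPM in female replicate 3, 98.0 CPM in male replicate 2 and 62.7 CPM in female replicate 4, and at 22.7 to 55.1 CPM in the others. Ier3 followed this pattern only in part. It was highest in male replicate 2 at 56.7 CPM and female replicate 4 at 47.3 CPM, but at 31.7 CPM in female replicate 3. Its lowest value was 30.4 CPM, in female replicate 1.

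Of 9 other MAP kinase phosphatases, 7 passed the filter. Of these, 0 correlated over 0.8 with the averaged level of the 8 genes, against 3.10% of other tested genes. The most abundant per length were Dusp6, Dusp8 and Dusp5, and Dusp6 stayed at 32.2 to 48.0 CPM. Dusp5, which acts on ERK in the nucleus, was at 3.30, 19.8, 23.5 and 23.1 CPM in the females and 3.96, 7.87, 7.60 and 9.02 CPM in the males. The 3 highest libraries were female, but so was the lowest. The log2 difference was 1.26 ± 0.49 (SE), the unadjusted p 0.0270 and the edgeR adjusted p 0.657. The unadjusted p stayed under 0.05 in 4 of the 8 fits that left out 1 library, and not without female replicates 2, 3 or 4 or male replicate 1. Without female replicate 1 the adjusted p was at its lowest, 0.0169.

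The factors and kinases that act on immediate early promoters were described in the same way. Of 17 upstream transcription factors and coactivators, 3 correlated above 0 with the averaged level of the 8 genes, against 47.1% of other tested genes. The median r was -0.517 against -0.05 over all other tested genes. Without female replicate 4 that median was -0.234. The CREB coactivator Crtc2 was higher in females at 44.9 ± 6.62 against 31.4 ± 5.33 CPM (SD, n = 4 each), a log2 difference of 0.50 ± 0.16 (SE). The unadjusted p was 0.0106 and the edgeR adjusted p 0.637. Crtc1 and Mef2a were the other abundant members per length. Of 18 upstream kinases, 0 were called at an unadjusted p under 0.05 by edgeR, against 7.11% of all tested genes. Their median r was -0.351, and 0.147 without female replicate 4. The most abundant per length was the MAP kinase Mapk3, at 430 to 537 CPM. Camk2a at 579 to 859 CPM and Mapk11 at 183 to 238 CPM followed on that scale.

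Of 7 late activity-response genes, which are induced after the immediate early wave, 6 passed the filter and 2 were higher in males at an unadjusted p under 0.05, against 2.67% of all tested genes. The neurotrophin gene Bdnf differed by -0.94 ± 0.15 (SE) on the log2 scale, female over male, at an edgeR adjusted p of 0.0597. Its unadjusted p was under 0.05 in 16 of 16 alternatives and its adjusted p in 5 of them, from 3.97e-05 with DESeq2 to 0.317 without male replicate 4. It was at 68.6, 63.2, 70.4 and 79.2 CPM in female replicates 1 to 4, which is the order of Fos over a narrower range. The males were at 159, 120.5, 105 and 149 CPM, which is not the order of Fos. Over the 8 libraries the r of Bdnf with the averaged level of the 8 genes was -0.109. Nptx2, a secreted pentraxin of synapses, differed by -0.42 ± 0.17 (SE), at an adjusted p of 0.678. Its unadjusted p of 0.0328 rose above 0.05 in 5 of the 8 fits that left out 1 library, those without female replicates 2, 3 or 4 or male replicates 1 or 4. Nrn1 and Scg2 were the most abundant per length, at 546 to 726 and 626 to 1023 CPM. The median r of the list with the averaged level of the 8 genes was -0.0003, and -0.08 without female replicate 4.

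The genes most like Fos over the 8 libraries, of 12510 tested genes other than the 8, were Gadd45b (r = 0.983), Jun (0.973), Cyr61 (0.959), Ephx4 (0.957) and Sdha (0.956). Gadd45b, a stress-induced gene, Jun and the growth factor-induced Cyr61 are immediate early genes, and Sdha is a subunit of the respiratory chain. Cyr61 covered 10.4 to 68.3 CPM and Gadd45b 5.55 to 12.5 CPM, whereas Sdha covered only 488 to 647 CPM. The genes most like the averaged level were Sdha (r = 0.987), Gadd45b (0.978), Qsox1 (0.969), Pkm2 (0.958) and Atp6v1b2 (0.955). These are the highest of many correlations over few libraries and are given as a description, and 219 genes (1.75%) had an r over 0.8 with Fos.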

How the data were processed

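RNA of sorted WGA-488+ DRG neurons from 4 female and 4 male mice was made into libraries with the oligo-dT primed, PCR-amplified SMART-seq2 protocol. Per the labels and the study's methods, the authors aligned single reads to build mm9 with TopHat2 and deposited raw read counts per gene from HTSeq-count. Program versions, the annotation used for counting and its strand setting were not given in the sources used here, and SMART-seq2 does not mark strand. Summary lines of the counting program, which hold the reads outside features, were left out of library sizes. Sex and replicate number came from the sample labels, which give no batch, so p-values measure the spread between these samples.

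The members and lists were chosen with earlier results of these data known, and nothing here is independent support for a pattern found earlier. Females and males were compared by edgeR 4.0.16 (R 4.3.3), using its quasi-likelihood test, with sex alone in the model, TMM scaling, the default expression filter and Benjamini-Hochberg adjustment over 12518 genes. The test was checked on simulated data. Printed levels are CPM by library size, and spread, standardised levels and correlations used TMM-scaled log2(CPM + 1). Exon lengths and positions came from GENCODE M1 (NCBIM37, the assembly also called mm9), where 21627 of 22609 symbols matched directly, 51 through an older symbol and 931 not at all. Coordinates are 1-based. Named were the 10 genes, in each list of related genes those with an unadjusted p under 0.05 and the 3 most abundant per length, and the 5 genes most like Fos and most like the averaged level. Egr4, Nr4a3 and single cell type markers were named after their values were seen.

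The fit was repeated using limma-voom (limma 3.58.1), DESeq2 1.42.0, other scaling factors and filters, counts thinned to the smallest library, the replicate number as a block and leaving out each library. Spreads were also taken with another offset (0.1). Leaving out libraries from the correlations, spreads and averaged levels was chosen after seeing the data. No libraries of the same sex were duplicates: their chi-square per degree of freedom was 2.82 to 44.9. Python 3.11.15 with pandas 2.3.3, scipy 1.17.1 and matplotlib 3.10.9 was used for summaries, exact tests and figures.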

Additional observations from a re-analysis of the deposited data

Results flagged for a closer look

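Of 20 groups of 4 libraries examined (10 genes in each sex), 1 held an outlying library by Dixon's criterion at 95%, and about 1 would be flagged by chance. Fosb in male replicate 2 was at 14.1 CPM (95 reads), against 5.78 to 6.51 CPM (35 to 46 reads) in the other males. Its gap to the nearest male on the log2 scale was 0.873 of the whole male range. Male replicate 2 was also the highest male library for Fos, Junb, Egr1, Nr4a1 and Dusp1.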

How the results depend on the processing

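The log2 fold changes of the 8 tested genes were recomputed under 16 alternatives, and of these 128 values 1 had an unadjusted p under 0.05, Nr4a1 without male replicate 2. Of the 8 genes, 0 were called under the other 15. Signs turned for 6 of the 8 genes. Fos was at 0.013 with limma-voom and 0.076 with the replicate block, and Fosb at 0.034 and 0.17. Junb was at -0.079 with limma-voom, -0.011 with thinned counts and -0.063 with the replicate block, and Egr1 at -0.012 with limma-voom. Leaving out 1 library gave -0.065 to 0.60 for Fos, -0.49 to 0.81 for Fosb, -0.23 to 0.22 for Junb, -0.15 to 0.43 for Egr1, -0.12 to 0.38 for Ier2 and -0.089 to 0.41 for Dusp1. Arc went from 0.08 without female replicate 4 to 0.68 without female replicate 1, and Nr4a1 from 0.37 without male replicate 1 to 0.88 without male replicate 2. Over all genes, 11 passed an adjusted p under 0.05, 48 with DESeq2 and 6 with the replicate block, and leaving out 1 library gave 7 to 84, the highest without female replicate 1. At an unadjusted p, 890 genes passed, and leaving out 1 library gave 587 (without male replicate 1) to 1453 (without female replicate 4). For the immediate early genes these fits called 0 to 1.

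Same-numbered libraries come from different mice, and the correlations of their deviations from the group means were 0.103, -0.117, 0.151 and 0.0107, so the number does not pair them. The replicate block gave 872 genes at an unadjusted p under 0.05 and called 0 immediate early genes. With 4 libraries a sex, the upper ends of the intervals allow a level in females from 1.51 times (Junb) to 3.13 times (Fosb) that in males. Egr3 and Npas4, at 0 to 12 reads, could not be compared.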
